A study of Mus musculus with 9 samples.

Results

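The hepatic insulin receptor pathway was examined through 9 genes, Insr, Irs1, Irs2, Pik3r1, Akt1, Akt2, Gsk3b, Foxo3 and Gys2, whose rows were taken by symbol from a deposited table of 27179 genes. All 9 were found and all 9 exceeded the minimum mean of 10 normalized counts used for testing. The animals were C57BL/6J mice labelled wild type, injected at 17 months of age into the retro-orbital vein and sampled 3 weeks later. Every mouse carried AAV8 encoding saCas9 (a small Cas9 nuclease) under TBG, a promoter active in hepatocytes, with a U6-driven guide RNA. The guide was directed at Rosa26, commonly used as a neutral cutting site, in the 4 control mice (sgRosa26, libraries A to D). It was directed at Ccnd1, which encodes cyclin D1, in the other 5 (sgCcnd1, libraries E to I). The letters follow column order and carry no pairing. Poly(A) RNA of the m-lobe was sequenced in bulk, so editing is limited to hepatocytes by the promoter while RNA of all liver cells was measured.

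Insulin binds its receptor, a tyrosine kinase that phosphorylates the adaptors IRS1 and IRS2. These recruit phosphatidylinositol 3-kinase, whose lipid product brings AKT to the membrane. AKT then inhibits GSK3, which releases glycogen synthase from inhibition, and excludes FOXO transcription factors from the nucleus. In the liver this pathway stores glucose as glycogen, restrains gluconeogenesis and promotes lipogenesis. Much of this signalling runs through phosphorylation, which transcript levels do not measure.

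The libraries held between 10.8 and 20.2 M reads assigned to genes. Ccnd1 averaged 744 ± 110 normalized counts in sgRosa26 (SD, n = 4) and 362 ± 40.6 in sgCcnd1 (SD, n = 5), with 5 of 5 sgCcnd1 libraries below every control (limma adjusted p = 0.0116). That adjusted p lay above 0.05 without library B (0.0857), D (0.0558), F (0.0587), H (0.0612) or I (0.0626). The log2 fold change of Ccnd1 stayed between -1.11 and -0.96 without single libraries. Library H stood apart from the other 8 in Y-linked transcripts, with Ddx3y at 2.00 normalized counts against 809.9 to 1154. Eif2s3y, Kdm5d and Uty were at 0 in H and at 145.5 or more in every other library. The defining hepatocyte markers were abundant in all libraries, and 0 of 7 had an unadjusted limma p under 0.05. The 10 markers of leukocytes other than Kupffer cells all had a lower mean in sgCcnd1 (as did 6116 of the 12993 genes tested). An unadjusted limma p under 0.05 was found for 5 of the 10, beside 5.74% lower over all genes tested, and 0 passed after adjustment. Their summed level was 945 to 1208 normalized counts in sgCcnd1 against 1328 to 1571 in sgRosa26. Lyz2 alone made up most of that sum, at 991 ± 69.9 in sgRosa26 (SD, n = 4) and 733 ± 60.7 in sgCcnd1 (SD, n = 5). Stellate markers (3 of 7) and cholangiocyte markers (1 of 5 tested) also had members lower at an unadjusted limma p under 0.05 (5.74% over all genes tested). Endothelial and Kupffer markers had none, and 0 markers of these lists passed after adjustment. In bulk tissue, fewer cells of a type and less RNA per cell cannot be told apart.

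None of the 9 genes differed between the groups after adjustment in limma. At an unadjusted limma p under 0.05 there were 3 of 9, with Gys2 and Foxo3 higher and Irs1 lower in sgCcnd1. Over all 12993 genes tested, 0.00770% passed the adjusted threshold, a single gene (Ccnd1), and 11.0% had an unadjusted p under 0.05 (5.22% higher, 5.74% lower). The groups overlapped for each of the 9 genes, whereas they did not overlap for 3.89% of all genes tested. The median log2 fold change of the 9 was 0.07 (0.02 without library H, 0.13 without A), beside 0.01 for all genes tested. Count models on recovered reads called 0 of the 9 as well, where edgeR called 0.00770% of all genes and DESeq2 0.976% of those with a defined adjusted p. Without library B no member had an unadjusted limma p under 0.05. Only Gys2 and Foxo3 did without A, F, H or I, and only Gys2 and Irs1 without D. Without H the log2 fold change of Irs2 was -0.23 and that of Gsk3b -0.08, and 485 genes in all were higher at an unadjusted p under 0.05, against 678 with it.

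**Figure D1:**
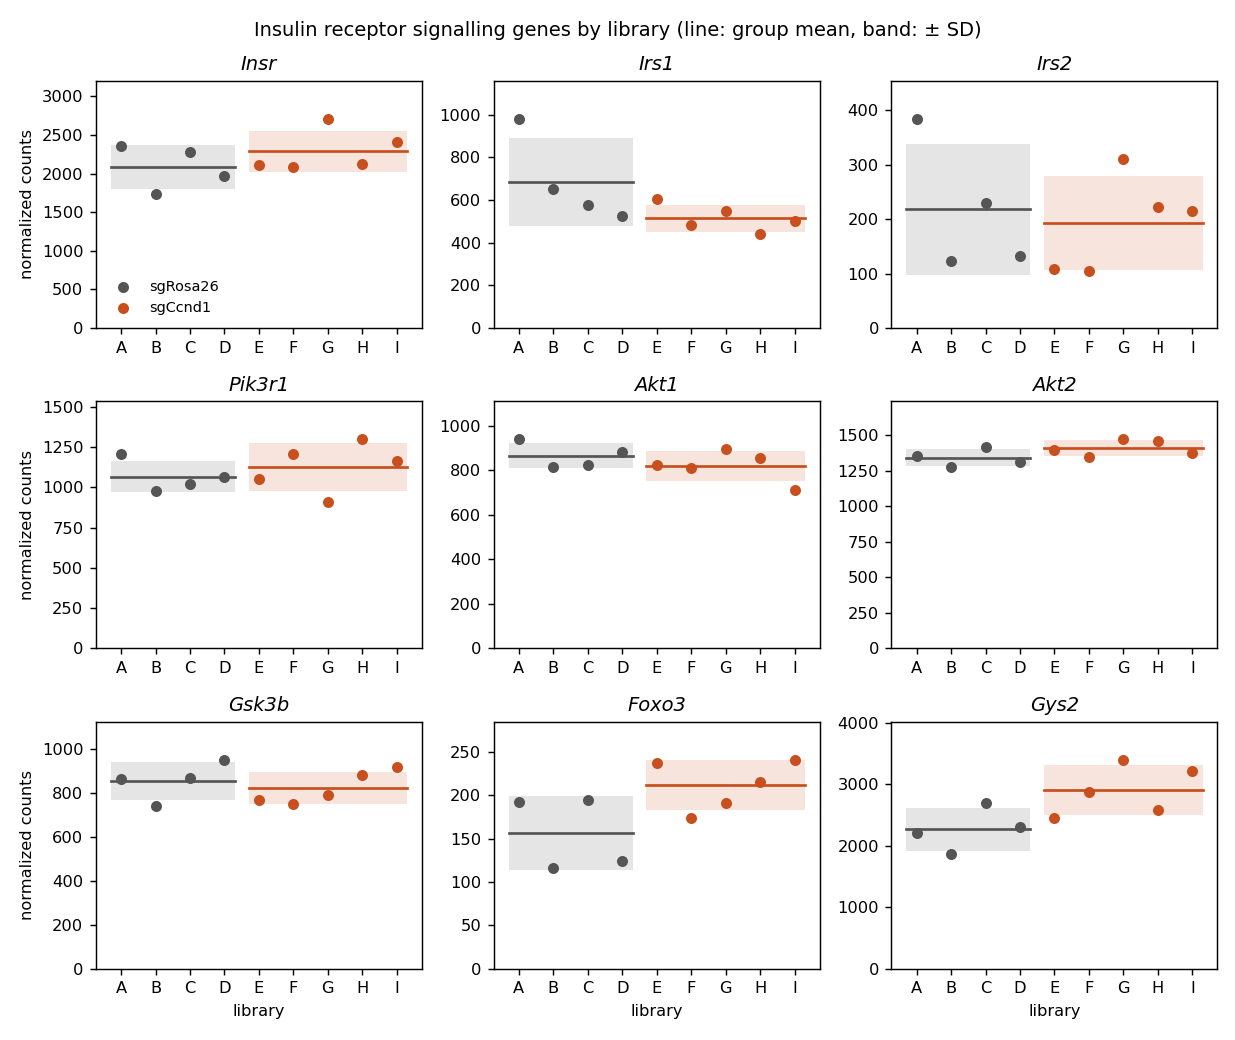
Normalized counts (y axis, from 0) of the 9 genes in each library (x axis), with grey points for sgRosa26 and orange points for sgCcnd1. Lines are group means and bands ± SD. The groups overlap in every panel, Irs2 is spread from 105 to 385 normalized counts and Akt2 only from 1281 to 1474.

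Insr encodes the receptor itself (Entrez 16337, chr8:3122061-3279617, minus strand, GRCm38). Its values were 2362, 1735, 2280 and 1970 normalized counts in A to D and 2110, 2086, 2711, 2120 and 2406 in E to I. Libraries G and I exceeded every control and B was the lowest of all 9. The log2 fold change was 0.14 with a 95% confidence interval of -0.11 to 0.38 (limma adjusted p = 0.678), so that the interval ran from 0.928-fold to 1.30-fold. Without B the log2 fold change was 0.05. Igf1r, the related receptor for insulin-like growth factor 1, was at 69.5 ± 18.7 normalized counts in sgRosa26 (SD, n = 4) and 62.2 ± 15.3 in sgCcnd1 (SD, n = 5). The log2 ratio of Insr to Igf1r within a library averaged 4.92 ± 0.47 in sgRosa26 and 5.20 ± 0.28 in sgCcnd1 (exact permutation p = 0.317, adjusted over 6 ratios 0.476). Its difference between the groups was 0.10 without library B and 0.48 without D.

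Irs1 and Irs2 encode the adaptors that carry the signal from the receptor in hepatocytes, and FOXO factors are known to raise Irs2 transcription when insulin is low. Their start-site regions are shown because, with Igfbp1, a classical insulin-repressed gene, they hold matches to the core of the insulin response sequence. The 250 bases before the RefSeq start (GRCm38.p6) were chr1:82291440-82291689 for Irs1 (minus strand), chr8:11008930-11009179 for Irs2 (minus strand) and chr11:7197537-7197786 for Igfbp1 (plus strand). Capitals mark CAAAACA or its reverse complement TGTTTTG.
Irs1: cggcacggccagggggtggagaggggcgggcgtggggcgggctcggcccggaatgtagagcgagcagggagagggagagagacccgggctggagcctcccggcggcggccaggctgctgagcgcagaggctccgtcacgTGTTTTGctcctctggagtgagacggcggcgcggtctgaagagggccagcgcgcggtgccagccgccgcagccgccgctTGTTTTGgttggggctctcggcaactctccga
Irs2: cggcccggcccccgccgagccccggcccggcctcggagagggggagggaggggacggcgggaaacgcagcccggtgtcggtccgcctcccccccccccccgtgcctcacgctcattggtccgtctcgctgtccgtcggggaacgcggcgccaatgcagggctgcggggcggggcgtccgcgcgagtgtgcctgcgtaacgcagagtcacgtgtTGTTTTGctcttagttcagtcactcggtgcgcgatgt
Igfbp1: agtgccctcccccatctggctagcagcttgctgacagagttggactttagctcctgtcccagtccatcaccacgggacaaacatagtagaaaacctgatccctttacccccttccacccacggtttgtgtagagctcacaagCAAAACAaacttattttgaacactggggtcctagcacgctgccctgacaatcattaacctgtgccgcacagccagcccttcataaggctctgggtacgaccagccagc
The matches began 111 and 32 bases upstream of the start in Irs1, 37 bases upstream in Irs2 and 108 bases upstream in Igfbp1. Windows from 250 bases before to 50 after the start were searched on both strands for this motif and for the FOXO core GTAAACA, and the matches found did not overlap each other. Of all 32851 such windows, 6.28% held the first motif and 3.65% the second. RefSeq windows were matched for 7 of the 9 genes (12 windows), and the only other match was the FOXO core 161 bases upstream of a start of Akt1. Insr and Gys2 were not among the windows.

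Irs1 (Entrez 16367, chr1:82233101-82291416, minus strand) was at 981, 653, 577 and 525 normalized counts in A to D and 604, 482, 550, 440 and 499.6 in E to I. Library A was the highest of all 9, and F, H and I lay below every control. The group means were 684 ± 205 in sgRosa26 (SD, n = 4) and 515 ± 63.5 in sgCcnd1 (SD, n = 5). The log2 fold change was -0.37 with a 95% confidence interval of -0.73 to -0.02 (limma unadjusted p = 0.0386, adjusted p = 0.426). The unadjusted limma p was above 0.05 when any of 5 libraries was left out: 0.134 without A (log2 fold change -0.19), 0.0605 without B, 0.0705 without F, 0.0869 without H (-0.32) and 0.0656 without I. With all 9 libraries kept but each given its own weight in limma (array weights), the unadjusted p was 0.0579 (-0.31).

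Irs2 (Entrez 384783, chr8:10984681-11008458, minus strand) was at 385, 124, 229.95 and 133 normalized counts in A to D and 109, 105, 311, 223 and 216 in E to I. Both groups held low libraries (B and D, E and F) and high ones (A and G), and the highest value was 3.67 times the lowest. The log2 fold change was -0.15 with a 95% confidence interval of -0.96 to 0.66 (limma adjusted p = 0.917), which leaves room for 0.516-fold to 1.58-fold. Its sign turned without A (0.18), E (0.03) or F (0.04). Irs2 had 117 to 318 reads per library, so counting error was at most 9.25% of the value, while the coefficient of variation between animals was 55.7% in sgRosa26 and 45.1% in sgCcnd1. The within-group standard deviation of Irs2 was 0.72 on the log2 scale, above that of 98.0% of all genes tested. The log2 ratio of Irs2 to Irs1 was lowest in E (-2.46) and B (-2.39) and highest in G (-0.82), and its group means of -1.76 ± 0.52 and -1.53 ± 0.74 did not differ detectably (exact permutation p = 0.595, adjusted over 6 ratios 0.714). The difference in this ratio was 0.02 without B and 0.46 without E.

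Pik3r1 encodes the regulatory subunit p85 alpha of phosphatidylinositol 3-kinase (Entrez 18708, chr13:101680563-101768217, minus strand). It was at 1205, 981, 1019 and 1066 normalized counts in A to D and 1055, 1206, 912, 1300 and 1164 in E to I. The sgCcnd1 libraries enclosed the whole control range, with G lowest and H highest of all 9. The estimated log2 fold change was 0.07 with a 95% confidence interval of -0.16 to 0.31 (limma adjusted p = 0.838), with a value of 0.02 without H and 0.15 without G.

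Akt1 and Akt2 encode the kinases at the centre of the pathway, and AKT2 is the isoform best known for metabolic insulin action. Akt1 (Entrez 11651, chr12:112653821-112674884, minus strand) was at 941, 817, 825 and 885 normalized counts in A to D and 825, 813, 896, 855 and 714 in E to I. Akt2 (Entrez 11652, chr7:27591552-27640826, plus strand) was at 1359, 1281, 1420 and 1316 in A to D and 1396, 1349, 1474, 1459 and 1380 in E to I. Akt1 was lowest in I and highest in A, and Akt2 was lowest in B and highest in G. On the log2 scale the difference was -0.08 for Akt1 (95% confidence interval -0.27 to 0.11, limma adjusted p = 0.753) and 0.07 for Akt2 (-0.08 to 0.22, limma adjusted p = 0.732). These intervals, which are not adjusted over genes, ran from 0.831-fold to 1.08-fold for Akt1 and from 0.945-fold to 1.17-fold for Akt2. Without library I the value for Akt1 was -0.03. Akt2 had a within-group standard deviation of 0.06 on the log2 scale, above that of 0.700% of all genes tested, which makes it the steadiest of the 9. The log2 ratio of Akt2 to Akt1 averaged 0.63 ± 0.11 in sgRosa26 and 0.79 ± 0.09 in sgCcnd1 (exact permutation p = 0.0714, adjusted over 6 ratios 0.214).

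Gsk3b encodes the kinase that inhibits glycogen synthase until AKT inhibits it in turn (Entrez 56637, chr16:38089001-38246084, plus strand). It was at 862, 741, 865 and 951 normalized counts in A to D and 767, 750.2, 791, 882 and 918 in E to I, and every sgCcnd1 library lay inside the control range. The estimated log2 fold change was -0.06 with a 95% confidence interval of -0.26 to 0.15 (limma adjusted p = 0.864), and the value ran from -0.12 without B to -0.0027 without D. The log2 ratio of Gsk3b to its paralog Gsk3a averaged 0.66 ± 0.16 in sgRosa26 and 0.56 ± 0.13 in sgCcnd1 (exact permutation p = 0.270, adjusted over 6 ratios 0.476).

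Gys2 encodes the liver form of glycogen synthase (Entrez 232493, chr6:142422613-142473109, minus strand). It was at 2211, 1861, 2706 and 2312 normalized counts in A to D and 2455, 2878, 3405, 2578 and 3220 in E to I. Libraries F, G and I exceeded every control, and E and H lay below control C. The group means were 2272 ± 348 in sgRosa26 (SD, n = 4) and 2907 ± 406 in sgCcnd1 (SD, n = 5), which is 128% of the control mean. The log2 fold change was 0.36 with a 95% confidence interval of 0.09 to 0.63 (limma unadjusted p = 0.0136, adjusted p = 0.337). By unadjusted p, Gys2 ranked 520 among all genes tested. Pygl, the liver glycogen phosphorylase that breaks glycogen down, had a similar difference (0.34 on the log2 scale, limma adjusted p = 0.296). The log2 ratio of Gys2 to Pygl averaged -1.84 ± 0.10 in sgRosa26 and -1.82 ± 0.27 in sgCcnd1 (exact permutation p = 0.897, adjusted over 6 ratios 0.897).

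Foxo3 encodes a FOXO transcription factor that AKT keeps out of the nucleus (Entrez 56484, chr10:42181841-42276755, minus strand). It was at 192, 116, 194 and 124 normalized counts in A to D and 238, 174, 191, 216 and 241 in E to I. The controls split into a lower pair (B and D) and a higher pair (A and C), and E, H and I exceeded all of them. The log2 fold change was 0.46 with a 95% confidence interval of 0.09 to 0.84 (limma unadjusted p = 0.0196, adjusted p = 0.363). Without either library of the lower control pair the unadjusted limma p was above 0.05, at 0.0737 without B (log2 fold change 0.33) and 0.0675 without D (0.37). Relative to Foxo1, the FOXO factor best known in hepatocytes, the log2 ratio of Foxo3 averaged -1.72 ± 0.27 in sgRosa26 and -1.33 ± 0.19 in sgCcnd1, with 4 of 5 sgCcnd1 libraries above every control. The exact permutation p of that difference was 0.0317, and 0.190 when adjusted over the 6 ratios. It was at or above 0.0857 when B, D, E, F, H or I was left out, and highest without B (exact permutation p = 0.107, difference 0.27).

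**Figure D2:**
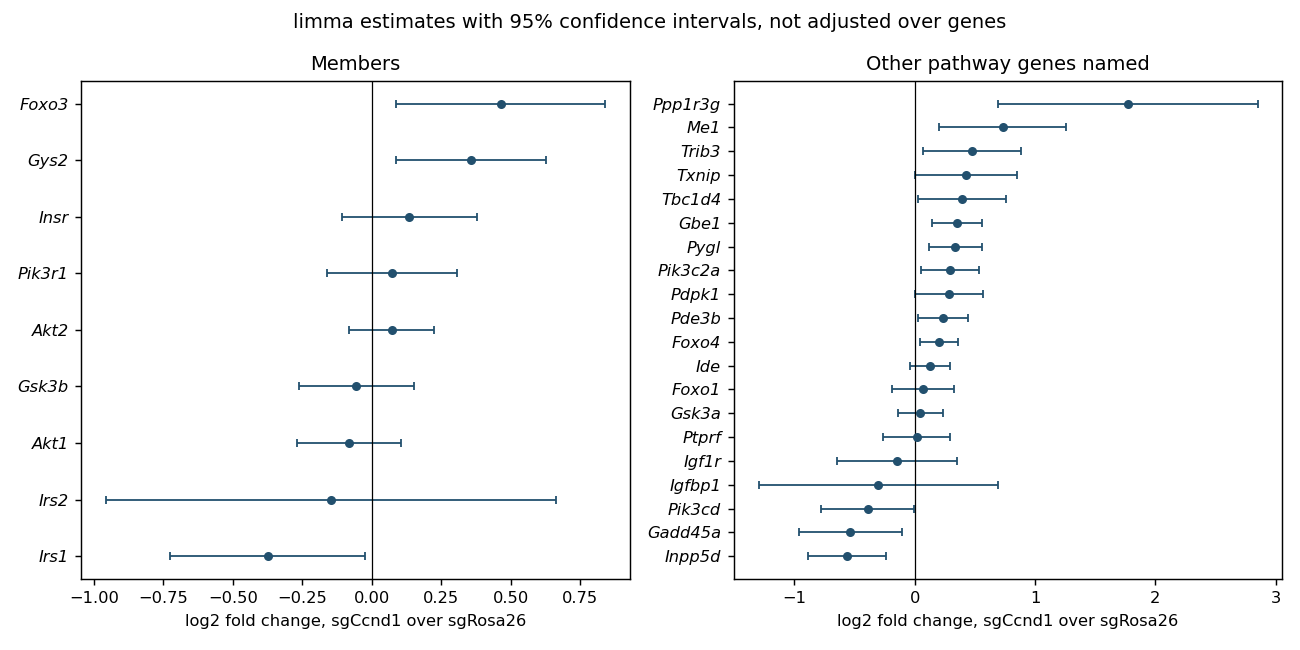
log2 fold changes of sgCcnd1 over sgRosa26 (x axis) with 95% confidence intervals, for the 9 genes (left) and other genes of the pathway (right, all those named here except Trib2), from limma. The intervals are not adjusted over genes. Of the 9 genes, the intervals of Foxo3, Gys2 and Irs1 lie to one side of 0, and that of Irs2 is the widest.

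Per kilobase of exonic sequence, Gys2 was the most abundant transcript of the set, at 855 ± 131 normalized counts per kb in sgRosa26 (SD, n = 4) and 1094 ± 153 in sgCcnd1 (SD, n = 5). It was above the next gene in 9 of 9 libraries. Akt1 (212 ± 14.1 per kb in sgRosa26) and Akt2 (188 ± 8.42) came next. Akt1 was above Akt2 in 8 of 9 libraries, but in sgCcnd1 the pair stood at 200.2 ± 16.5 and 198 ± 7.49, within their spread. Insr followed at 152 ± 21.0 per kb in sgRosa26, Pik3r1 at 106 ± 9.71 and Gsk3b at 86.9 ± 8.79. Irs1 was at 74.8 ± 22.4 per kb in sgRosa26, a spread that reaches the mean of Gsk3b, and below Gsk3b in 8 of 9 libraries. Irs2 (34.5 ± 19.2 per kb in sgRosa26) and Foxo3 (20.7 ± 5.59) were the lowest and did not separate beyond their spread, since Irs2 was above Foxo3 in 7 of 9 libraries. Exonic length was the union of all annotated exons, which understates the level of genes whose liver transcripts use few of them.

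Across the 9 libraries, 36 pairs of the 9 genes were compared and 0 correlations passed after adjustment (exact permutation, 5 pairs at an unadjusted p under 0.05, smallest adjusted p = 0.240). Insr and Gys2 gave the highest Pearson r, 0.80 (exact permutation p = 0.0111, adjusted over 36 pairs 0.240), with a Spearman rho of 0.65 (exact permutation p = 0.0666, adjusted 0.486). Without the libraries farthest from the median of Insr (B and G) r was 0.34, so its size depended on which libraries were kept. Without library A this pair had r = 0.94 (0.82 with B and G also left out) and was the one pair to pass (exact permutation adjusted p = 0.0357). Insr and Irs2 had r = 0.74 (exact permutation p = 0.0195, adjusted over 36 pairs 0.240, over 4 chosen Irs2 relations 0.0780). Their rho was 0.73 (exact permutation p = 0.0311, adjusted over 36 pairs 0.442, over the 4 relations 0.124). Without the libraries farthest from the median of Irs2 (E and F), r was 0.84, and after removal of the group means it was 0.86. Within groups r was 0.91 over the 4 sgRosa26 libraries and 0.80 over the 5 sgCcnd1 libraries, given as a description.

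The other Irs2 relations given here did not pass either. Against Igfbp1, r was 0.14 (exact permutation p = 0.722, adjusted over 4 relations 0.722, rho = 0.12, exact permutation p = 0.776, adjusted 0.776) and 0.04 without E and F. Against Irs1, r was 0.40 (exact permutation p = 0.307, adjusted over 4 relations 0.409, rho = 0.25, exact permutation p = 0.521, adjusted 0.694) and 0.40 without E and F. Without library A the r with Irs1 turned to -0.25, and without H it was 0.52.

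**Figure D3:**
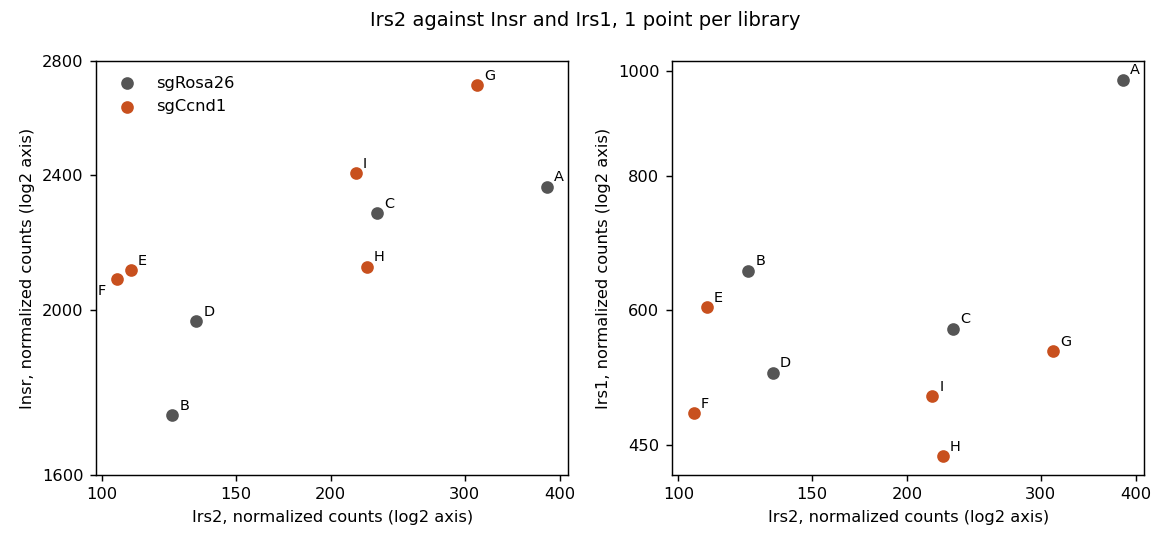
Normalized counts of Insr (left) and Irs1 (right) on the y axis against Irs2 on the x axis, both on log2 axes, with 1 lettered point per library in grey for sgRosa26 and orange for sgCcnd1. The 4 libraries lowest in Irs2 (B, D, E, F) are also the 4 lowest in Insr, and library G, at 311 normalized counts of Irs2, is highest in Insr, while library A is highest in both Irs2 and Irs1.

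Among 8943 genes averaging 100 or more normalized counts, the gene whose log2 values followed each member most closely over the 9 libraries is given as a description. It was Lmo7 for Insr (r = 0.97), Ighg2c, an immunoglobulin heavy chain gene, for Irs1 (0.95), Man2b2 for Irs2 (0.95), D6Wsu163e for Pik3r1 (0.95) and Wars1 for Akt1 (0.93). For the remaining 4 it was Rab21 for Akt2 (0.95), Efl1 for Gsk3b (0.93), Uba1 for Foxo3 (0.98) and Pkn2 for Gys2 (0.96). All these r share the same 9 libraries, and the highest of so many values is high by selection.

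The rest of the pathway was read from 7 lists of 109 genes, of which 105 were tested. In limma 0 passed in either direction, as in edgeR and, where its adjusted p was defined, DESeq2, and at an unadjusted limma p under 0.05 there were 12 higher and 5 lower, beside 5.22% and 5.74% of all genes tested, shares against which the counts of the single lists are also to be read. The unadjusted p stayed under 0.05 with each library left out in turn for Inpp5d, Gbe1, Pygl, Ppp1r3g, Foxo4 and Me1. It did not for the other pathway genes named here that had it, except Trib2, for which this was not examined. The median log2 fold change over the 105 was 0.09 (0.05 without library B, 0.14 without C), beside 0.01 over all genes tested, and 73 of them had a positive value, beside 6877 of the 12993 tested. The median of the PI3K list turned to -0.015 without D and that of the lipogenic list to -0.022 without F. The groups did not overlap for 3 genes higher and 1 lower in sgCcnd1, beside 1.92% and 1.97% of all genes tested.

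**Figure D4:**
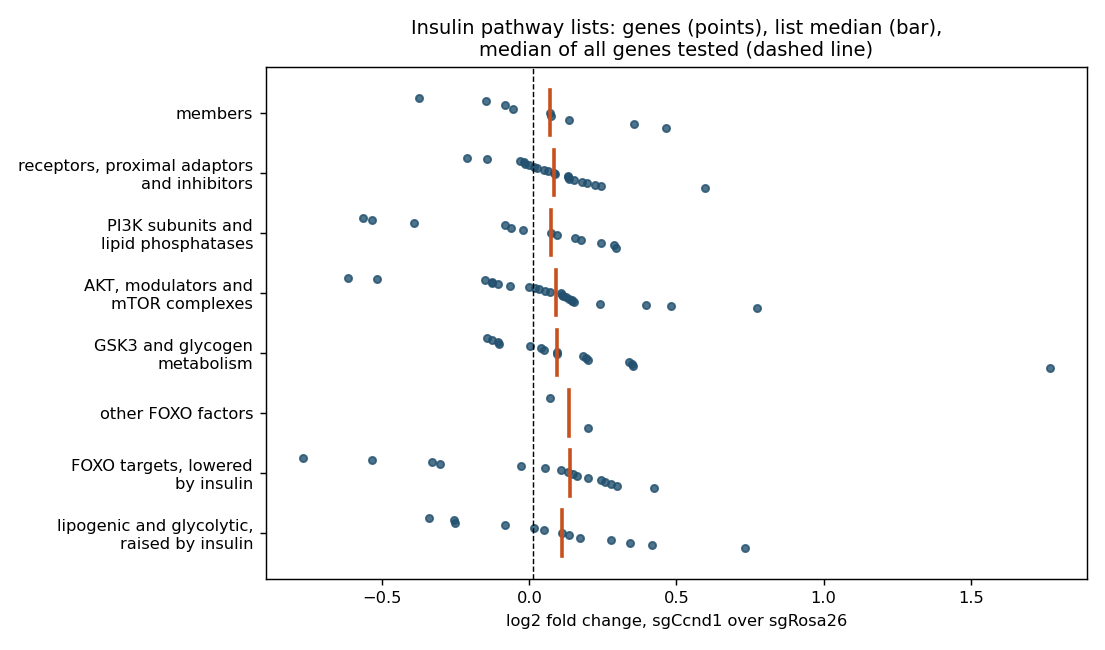
log2 fold changes of sgCcnd1 over sgRosa26 (x axis) for each gene tested (points) of the 9 members and the 7 pathway lists (rows), with the list median as an orange bar and the median of all genes tested, 0.01, as a dashed line. List medians lie between 0.07 and 0.14, and the point far to the right is Ppp1r3g at 1.77.

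Among receptors, proximal adaptors and inhibitors, 0 of 21 genes had an unadjusted p under 0.05 and the median log2 fold change was 0.08 (0.02 without library B, 0.13 without A). Highest in normalized counts, without correction for length, were Ptprf, a receptor tyrosine phosphatase (0.02 on the log2 scale, limma adjusted p = 0.972), and Ide, the insulin-degrading enzyme (0.13, limma adjusted p = 0.544, and 0.08 without library B). The sign for Ptprf turned under some settings, to -0.07 with quantile normalization and -0.02 with scaling to the 75th percentile.

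Among PI3K subunits and lipid phosphatases, 3 of 13 had an unadjusted p under 0.05 and were higher in sgCcnd1, and 2 were lower (5.22% and 5.74% over all genes tested), with 0 past adjustment in limma. Inpp5d, the lipid phosphatase SHIP1 of blood cells, was at 108, 104, 107 and 104 normalized counts in A to D and at 93.0, 53.7, 73.4, 74.97 and 66.7 in E to I, so that the groups did not overlap. Its log2 fold change was -0.56 (limma adjusted p = 0.255). Pik3cd, the catalytic subunit typical of leukocytes, had a value of -0.39 (limma adjusted p = 0.454), and -0.25 without library B. Both accompany the lower summed level of the 10 leukocyte markers given above, a sum made up mostly of Lyz2. The part of leukocytes in these values was not tested. Pdpk1, which activates AKT, had a value of 0.29 (limma adjusted p = 0.446, and 0.17 without library B), and Pik3c2a, a class II lipid kinase, also 0.29 (limma adjusted p = 0.374).

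Among AKT, its modulators and the mTOR complexes, 3 of 24 were higher and 2 lower at an unadjusted p under 0.05 (5.22% and 5.74% over all genes tested), with 0 past adjustment in limma. Trib3, a pseudokinase reported to bind AKT, was at 92.0 ± 18.4 normalized counts in sgRosa26 and 130 ± 32.6 in sgCcnd1 (log2 fold change 0.48, limma adjusted p = 0.380). Pde3b, a phosphodiesterase activated by AKT, differed by 0.24 on the log2 scale (limma adjusted p = 0.389). Tbc1d4, an AKT substrate in vesicle traffic, had a value of 0.40 (limma adjusted p = 0.418), and 0.24 without library B. In all 3 cases 4 of 5 sgCcnd1 values exceeded the whole control range. Trib2, a related pseudokinase and 1 of those lower, is named after its values were seen (-0.61, limma adjusted p = 0.390), with means of 55.7 normalized counts in sgRosa26 and 37.0 in sgCcnd1.

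In glycogen metabolism, 3 of 16 genes had an unadjusted p under 0.05, all higher in sgCcnd1 (5.22% over all genes tested), and 0 passed in limma. Gbe1, the branching enzyme, was at 2382, 2287, 2806 and 2019 normalized counts in A to D and 3068, 3279, 2846, 2895 and 2985 in E to I, without overlap (log2 fold change 0.35, limma adjusted p = 0.259). Pygl was at 8086 ± 932 in sgRosa26 (SD, n = 4) and 10203 ± 879 in sgCcnd1 (SD, n = 5). Ppp1r3g, a glycogen-targeting subunit of protein phosphatase 1, was at 9.84, 30.7, 27.2 and 11.7 in A to D and at 26.7, 66.2, 183, 37.98 and 78.1 in E to I. Its log2 fold change was 1.77 (95% confidence interval 0.69 to 2.85, limma adjusted p = 0.270), with library G far above the rest. Gys2, Gbe1 and Pygl thus all had higher means in sgCcnd1, and none of these 3 passed over all genes. Of the 16 genes of the list, 12 had a positive and 4 a negative log2 fold change. Their median was 0.09, beside 0.09 over the 105 genes of all lists.

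Of the other FOXO factors, Foxo4 was at 542, 529, 579 and 587 normalized counts in A to D and 658, 616, 665, 645 and 629 in E to I, without overlap (log2 fold change 0.20, limma adjusted p = 0.354). Foxo1 had a value of 0.07 (limma adjusted p = 0.869), and Foxo6 was below the minimum mean. Among 16 FOXO targets that insulin lowers in hepatocytes, 1 was higher and 1 lower at an unadjusted p under 0.05 (5.22% and 5.74% over all genes tested), and 0 passed in limma. Txnip, which restrains glucose uptake, stood at 0.42 on the log2 scale (limma adjusted p = 0.454), and at 0.26 without library D. Gadd45a, a stress-response gene, had a value of -0.53 (limma adjusted p = 0.358). Igfbp1 was at 534 to 1301 in sgRosa26 and 287 to 1870 in sgCcnd1 (log2 fold change -0.30, limma adjusted p = 0.839), with a value between -0.71 without G and -0.03 without I.

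Among 13 lipogenic and glycolytic genes raised by insulin, 1 was higher at an unadjusted p under 0.05 (5.22% over all genes tested) and 0 passed in limma. Me1, the cytosolic malic enzyme that supplies NADPH to fatty acid synthesis, was at 2009, 4923, 5059 and 4517 normalized counts in A to D and 7915, 7797, 5851, 5611 and 5473 in E to I (log2 fold change 0.73, limma adjusted p = 0.334). All 5 sgCcnd1 libraries were above every control, and library A lay far below the rest. Without A the value was 0.42.

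The labels give neither the hour of harvest nor the feeding state, and insulin-responsive transcripts vary with both. Among 14 clock genes, 5 were higher and 2 lower in sgCcnd1 at an unadjusted limma p under 0.05 (5.22% and 5.74% over all genes tested), and 0 passed. Dbp, an output gene of the clock, was at 203 ± 113 normalized counts in sgRosa26 (SD, n = 4) and 408 ± 138 in sgCcnd1 (SD, n = 5). Npas2, which peaks at another phase, was at 116 ± 42.3 and 47.3 ± 16.8. All 10 fasting-induced genes had a higher mean in sgCcnd1 (as did 6877 of the 12993 genes tested; 1 at an unadjusted limma p under 0.05, beside 5.22%, 0 past adjustment, median log2 fold change 0.39), with a summed level of 40690 to 61858 normalized counts in sgRosa26 and 45057 to 62711 in sgCcnd1. Dbp and Npas2 are named after their values were seen. The part of daily time or feeding in the values of Irs1, Foxo3 and Gys2 was not tested.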

How the data were processed

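Liver poly(A) RNA of 9 mice was sequenced. Per the submitters' processing notes, the tools were Trim Galore 0.6.7, HISAT2 2.2.1, featureCounts 2.0.3, FastQC 0.74, MultiQC and DESeq2 2.11.40.8, with mm10 (GRCm38). Settings, annotation and use of strand are not given in the sources used here, and paralogs or overlapping genes may have shared or lost reads. The deposited signal is named normalized counts, and 100% of the values in each library were whole multiples (tolerance 0.01 read) of the value of 1 read, so the authors divided read counts by 1 size factor per library. For library H that value was too near 1 to be told from rounding, and count models were therefore repeated leaving H out.

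Columns name the guide target but no replicate, and only the group of each could be taken from it. The labels do not call the mice separate litters or cages. The p-values measure the spread between these animals.

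log2(normalized count + 1) was fitted with limma 3.58.1 (R 4.3.3; intensity trend, two-sided, no covariates) for the 12993 genes averaging 10 or more, and p-values were adjusted over all of them by the Benjamini-Hochberg method at 0.05. Fold changes on this scale understate changes of low genes. Ratios within libraries used the same log2 values and an exact two-sided permutation test over 126 splits, whose smallest p is 0.00794. Correlations used exact two-sided permutation of the 9 libraries. edgeR 4.0.16 (quasi-likelihood) and DESeq2 1.42.0 were alternatives. The 1010 adjusted p-values undefined in DESeq2 stayed undefined. In simulated counts for this comparison over 12993 genes, limma recovered 93% of genes changed 2-fold and 63% of those changed 1.5-fold. The changed genes were drawn only from those averaging at least 50 normalized counts. There limma made 166 calls, against 1 in the real data, which makes the adjusted threshold easier to reach. These shares may therefore be too high for the real data.

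Gene positions and exon lengths came from GENCODE M21 (GRCm38) and start-site windows from RefSeq GRCm38.p6. Gyg1 and Arntl of the lists were matched to Gyg and Bmal1 by RefSeq synonyms. The 9 genes and all lists were chosen with earlier results of these data known. Genes named from each list had an unadjusted p under 0.05 and a mean of at least 50 (at most 6), or, failing that, were the 2 highest in mean normalized counts. Genes of the ratios and correlations were also named, and Trib2, Dbp and Npas2 were named outside this rule. Some genes that met this rule, and 1 of the 4 Irs2 relations, are not reported here. For each member, the gene most like it was taken by Pearson r. Marker lists for hepatocytes, cholangiocytes, endothelial, stellate, Kupffer and other leukocytes were also read. Of these, cholangiocyte (1 of 5 tested), stellate (3 of 7) and other leukocyte genes (5 of 10) had members lower at an unadjusted p under 0.05, beside 5.74% over all genes tested. Hepatocyte (0 of 7), endothelial (0 of 6) and Kupffer genes (0 of 6) had none.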

Additional observations from a re-analysis of the deposited data

Results flagged for a closer look

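A single library lay far outside its group in 5 of the 74 sets of values searched, and about 3.7 such sets arise by chance. In sgCcnd1, the log2 ratio of Akt2 to Akt1 was 0.95 in library I while the remaining 4 ranged from 0.72 to 0.77. Pik3cd in the same group was at 104 normalized counts in library E against 61.8 to 72.4. In sgRosa26, library D had the lowest Txnip, at 599 normalized counts against 916 to 953, and the lowest Igf1r, at 41.8 against 75.003 to 81.5. Library A had 12.2 M reads against 16.2 to 16.6 M in the other controls.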

How the results depend on the processing

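No paired analysis was possible because column names hold only a target and an animal number. The fits without library H by count model, and the correlations under other pseudocounts or without a library, were added after the data were seen. The 9 genes kept an adjusted p above 0.05 under all 21 alternatives, the smallest being 0.222 (Gys2, without library E), and kept their sign in 186 of 189 values. The exceptions were Irs2 without A, E or F. Leaving out a library moved Irs2 between -0.36 and 0.18. DESeq2 called 76 genes lower and 41 higher in sgCcnd1 (25 and 16 when H was left out), where limma called 1 lower and 0 higher. Quantile normalization gave 2 lower, edgeR leaving out H gave 0, and dropping single libraries gave 0 to 2. The cause was not tested. The number of member pairs whose correlation passed was 0 to 1 without single libraries.

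Several values changed sign, among them the medians of the PI3K list (-0.015 to 0.11 without single libraries) and the lipogenic list (-0.022 to 0.23). The log2 ratio difference of Gys2 to Pygl ranged from -0.077 to 0.10 without single libraries, and r of Irs2 ranged from -0.20 to 0.32 against Igfbp1 and from -0.25 to 0.52 against Irs1. Ptprf was at -0.072 with quantile normalization, -0.017 with 75th percentile scaling, -0.0048 with edgeR and -0.063 to 0.13 without single libraries. Foxo1 was at -0.013 to 0.14 without single libraries. Igfbp1 was at 0.070 with edgeR and 0.072 with DESeq2, both without H, and -0.71 to -0.03 without single libraries in limma, and Gsk3a at -0.0037 with edgeR without H. With 4 and 5 animals, limma recovered 63% of genes changed 1.5-fold in simulated data, a share that may be too high for the real data. Changes of 1.5-fold and smaller could therefore be missed.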
